A study of Equus caballus with 4 samples.

Results

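The annexins are a family of proteins that bind negatively charged phospholipids in a calcium-dependent manner, by a conserved core of repeats that is shared by the members, whereas their N-terminal parts differ and carry the binding sites for partner proteins. In skeletal muscle several of them gather at the injured sarcolemma and take part in its resealing, and ANXA6, which has a longer core than the other members, is known from mice as a modifier of muscular dystrophy. Others have further roles, such as the control of inflammation by ANXA1 and the binding of phosphatidylserine on dying cells by ANXA5.

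The annexins were examined here in differentiating equine satellite cells (ESC), stem cells of skeletal muscle that form new fibres by fusion, isolated from the m. semitendinosus of young stallions. All cultures were at day 3 of differentiation and came from 1 primary cell line chosen by the study. One group was kept with GO (gamma-oryzanol, ferulic acid esters of plant sterols from rice bran) at 0.125 µM in DMSO for 24 h and received hydrogen peroxide (H2O2, 3 mM) for the last 1 h, while the other, the control, received the DMSO vehicle without GO. The labels name the control only by the absence of GO, whereas the study describes it as exposed to H2O2 as well. RNA was hybridised on 4 horse arrays of 1 slide (n = 4), each with treated RNA labelled with Cy5 and control RNA labelled with Cy3. No array had the dyes exchanged, so that dye and treatment cannot be told apart. The labels give the control on each array the same replicate number, while the design counts 4 control replicates, so that the p-values measure the spread between these arrays.

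Members were all gene probes whose gene name on the array was exactly ANXA1, ANXA2, ANXA3, ANXA4, ANXA5, ANXA6, ANXA7, ANXA8, ANXA11 or ANXA13, 10 of the 24998 gene names on the array. They had 24 probes on 28 spots. The family was examined because ANXA6 had the lowest mean ratio of all tested probes, and the values of ANXA6 are therefore given as a description without a test.

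All values are log2 ratios of treated over control signal unless stated otherwise, and errors are SDs over the 4 arrays. A probe was tested when its signal exceeded the background clearly (the mark of the scanner software) on every array, in the treated or in the control channel, and it passed the threshold when its limma p-value, adjusted by Benjamini-Hochberg over all 24230 tested probes, was under 0.05. Of the 24 annexin probes 19 were tested, for 9 genes. The 5 that were not tested were all probes of ANXA13, an annexin known from the intestine, which was not well above background on any array in either channel (0 of 4), and for which no ratio is given. No annexin spot was saturated, and 1 had an outlier mark and was left out (1 of the 5 spots of an ANXA1 probe, on replicate 4).

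The share of gene spots well above background was 54.9% to 61.3% for control RNA and 56.7% to 61.4% for treated RNA. All 7 muscle markers on the array were measured, and 4 of them (MYOG, MYH3, TNNT3 and CKM) were higher in treated cells, where 9.93% of all gene names passed as higher. The median log2 ratio was 0.25, with a range of 0.02 to 0.44 over the list. None of these 4 calls was kept without replicate 1, 3 or 4 or with median centring. Markers of endothelial cells (4 genes on the array), adipocytes (2) and Schwann cells (3) were not well above background. Of the fibroblast markers 3 of 4 were measured, and THY1 was higher (0.28 ± 0.14, limma adjusted p = 0.0290). COL3A1 with 0.23 ± 0.27 (adjusted p = 0.134) and DCN with −0.10 ± 0.05 (adjusted p = 0.127), which was lower on all arrays, did not pass. Of the leukocyte markers 2 of 3 were measured, of which CD14 was lower (−0.17 ± 0.06, adjusted p = 0.0385) and CD68 did not pass (0.00 ± 0.06, adjusted p = 0.942). No tested probe of the array passed without replicate 4, so that the calls of THY1 and CD14 were lost there as well. Without replicate 1, without replicate 3 and with median centring 2, 38 and 12 of all 24230 tested probes passed. The part of these shifts in the annexin ratios was not tested. In such cultures fewer cells of a type and less RNA per cell cannot be told apart.

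The sequences below show how far probes of different annexins, and the tiled probes of ANXA11, resemble each other. Probes of 2 different annexins shared at most 10 bases in a row, over 246 pairs of probes. The first 2 probes lie in ANXA6 (EquCab1, chr14:26252423-26253839, plus strand) and ANXA1 (chr23:8368194-8369107, minus strand), and the capitals mark the 10 bases that they share.

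ANXA6: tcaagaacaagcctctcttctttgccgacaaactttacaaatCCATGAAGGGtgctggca

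ANXA1 probe 3: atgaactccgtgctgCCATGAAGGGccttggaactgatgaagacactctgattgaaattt

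The next 2 lie in ANXA2 (chr1:128722175-128723276) and ANXA8 (chr1:80382639-80385227, plus strand), and the capitals again mark 10 shared bases.

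ANXA2 probe 3: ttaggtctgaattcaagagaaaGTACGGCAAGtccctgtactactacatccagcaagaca

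ANXA8: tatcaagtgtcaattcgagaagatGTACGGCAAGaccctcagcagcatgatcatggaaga

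The last 2 are the outer probes of the 5 that tile ANXA11 (chr1:65971075-65971138) in steps of 1 base. The capitals mark the 56 bases that both hold, which shows that the 5 probes are near copies and not separate measurements.

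ANXA11 probe 5: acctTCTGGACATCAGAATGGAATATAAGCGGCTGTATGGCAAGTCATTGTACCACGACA

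ANXA11 probe 2: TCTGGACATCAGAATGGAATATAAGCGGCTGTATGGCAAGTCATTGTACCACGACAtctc

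The positions of 7 annexin probes spanned more genome than the 60 bases of the probe, as those of a probe across an exon junction do. The ANXA6 probe was among them, with a span of 1417 bases. The longest run that the ANXA6 probe shared with any other probe of the array was 15 bases. It was shared with 2 probes of 1 gene model without a symbol, ENSECAT00000024435, which had mean log2 ratios of −0.10 ± 0.10 and −0.10 ± 0.07, without the low values of the ANXA6 probe.

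ANXA6 had the lowest ratio of the family, and it was low on 3 of the 4 arrays. Its log2 ratio was −1.69, −1.19, −1.55 and −0.04 on replicates 1 to 4 (−1.12 ± 0.75), so that the control signal was 3.22, 2.28, 2.93 and 1.03 times the treated one. Replicate 4 thus had hardly any difference, and the mean without it was −1.48. Leaving out replicate 1, 2 or 3 instead gave −0.93, −1.09 and −0.97.

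The spread was larger in the treated than in the control channel. The log2 signal of ANXA6 in treated cells was 9.58, 9.24, 9.58 and 11.05 on replicates 1 to 4 (9.86 ± 0.81). In control cells it was 11.27, 10.42, 11.13 and 11.09 (10.98 ± 0.38). The treated signals of replicates 1 to 3 lay below all control signals, and that of replicate 4 lay within the range of the control.

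The intensities as scanned also showed the low treated signal on replicates 1 to 3 and not on replicate 4. The mean intensity of the ANXA6 spot was 974, 678, 659 and 2131 in treated cells and 2808, 1268, 1650 and 1958 in control cells. These were 14.4 to 45.3 times the local background in the treated channel and 26.4 to 67.7 times in the control channel, and no outlier mark was set, so that ANXA6 was measured well above background in both channels of every array.

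Among the 24230 tested probes the ANXA6 probe was the 2nd, 1st and 4th lowest on replicates 1, 2 and 3 and ranked 9384 from the lowest on replicate 4. Its SD over the arrays (0.75) was exceeded by 81 probes, and the median SD of all probes was 0.0934. In the other 8 measured annexins the SD lay between 0.0792 and 0.324, with a median of 0.128. ANXA6 thus had both the lowest mean and the widest spread of the family.

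The spot itself was examined since ANXA6 had 1 probe with 1 spot. The correlation between the channels over the pixels of the spot was 0.290, 0.171, 0.110 and 0.788 on replicates 1 to 4. Spots of like signal had medians of 0.765, 0.666, 0.718 and 0.822, and 7.87%, 7.30%, 2.08% and 35.0% of them had a lower correlation than ANXA6. The correlation was therefore low on the 3 arrays with the low ratio, and its part in the ratio was not tested. The 22 tested neighbours of the spot on the array had median log2 ratios of −0.02, −0.04, −0.05 and 0.07, and the lowest ratio among them on any array was −0.50.

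**Figure D1:**
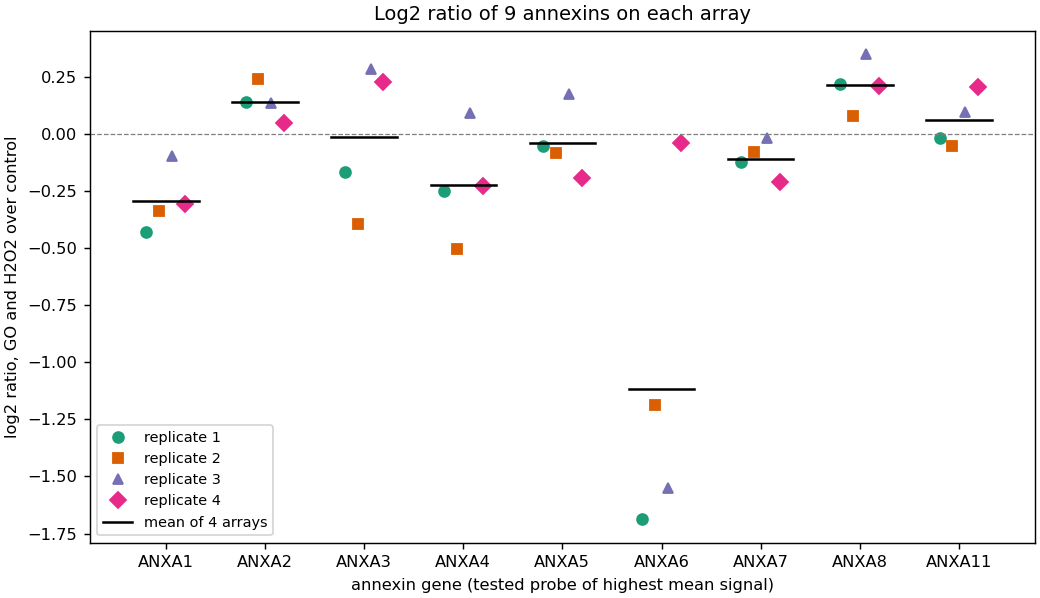
Log2 ratio of treated (GO and H2O2) over control signal for 9 annexins, with 1 point per array and a black line at the mean of 4 arrays; each gene is shown by its tested probe of highest mean signal. ANXA6 lies at −1.69, −1.19 and −1.55 on replicates 1 to 3 and at −0.04 on replicate 4, while every point of the other 8 genes lies between −0.51 and 0.35.

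On the 3 arrays on which ANXA6 was low, the other annexins lay nearer to 0, as the plot of log2 ratios by array shows. On replicate 1 they ran from −0.43 (ANXA1) to 0.22 (ANXA8). On replicate 2 they ran from −0.51 (ANXA4) to 0.24 (ANXA2), and on replicate 3 from −0.10 (ANXA1) to 0.35 (ANXA8). None of the 8 was lower than ANXA6 on these 3 arrays. On replicate 4 the range was −0.31 (ANXA1) to 0.23 (ANXA3), and 4 of the 8 were lower than ANXA6.

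The difference between ANXA6 and the median of the other 8 annexins was −1.60, −1.10, −1.66 and 0.03 on the 4 arrays (−1.08 ± 0.78). It was therefore close to the ratio of ANXA6 itself on replicates 1 to 3 and near 0 on replicate 4. The 8 other genes had a median log2 ratio of −0.03, and all tested probes had one of 0.00.

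Besides ANXA6, 4 of 18 tested annexin probes passed the threshold, 3 of ANXA1 lower and 1 of ANXA8 higher, where 17.1% of all tested probes passed (7.59% lower and 9.49% higher). Without adjustment 8 of the 18 had a limma p-value under 0.05, and so had 36.7% of all tested probes. With ANXA6 included, the sign was the same on every array for 8 of the 19 annexin probes, 6 of them lower, where the shares over all tested probes were 43.8% and 21.2%. These counts are descriptive, and probes of 1 gene are not independent.

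**Figure D2:**
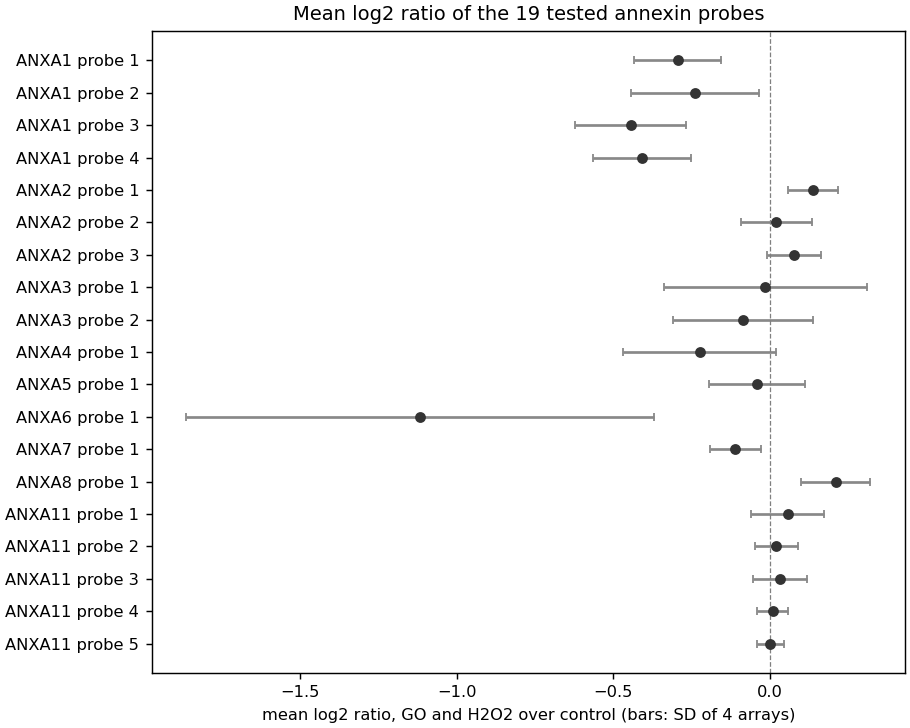
Mean log2 ratio of treated over control signal for the 19 tested annexin probes, with bars of 1 SD over 4 arrays; probes of a gene are numbered from the highest mean signal. The 4 ANXA1 probes lie between −0.44 and −0.24, the ANXA8 probe lies at 0.21, and the ANXA6 probe at −1.12 has the longest bar (0.75).

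ANXA1, a glucocorticoid-induced protein that limits inflammation, fell in treated cells by 3 of its 4 probes. The probe of highest signal (chr23:8360094-8360153) had log2 ratios of −0.43, −0.34, −0.10 and −0.31 (−0.29 ± 0.14), a fold change of 0.816 (limma adjusted p = 0.0272). Its log2 signal was 14.78, 14.93, 15.04 and 14.78 in treated and 15.21, 15.27, 15.14 and 15.08 in control cells. All treated signals lay below all control signals after normalisation, with the smallest difference on replicate 3. As scanned, the treated channel was the brighter one at all 5 spots of this probe on every array. At 1 of them it had 36615 against 31894 on replicate 2. The lower signal of this probe was thus seen only after normalisation.

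The lower signal of ANXA1 was seen at both ends of the probed region. Probe 3, printed above, had log2 ratios of −0.48, −0.49, −0.19 and −0.61 (−0.44 ± 0.18, limma adjusted p = 0.0183), a fold change of 0.735. Probe 4, which shared 39 bases with probe 3, had −0.38, −0.46, −0.21 and −0.58 (−0.41 ± 0.16, adjusted p = 0.0184). Probe 2 (chr23:8360165-8360875) had −0.50, −0.27, −0.01 and −0.17 (−0.24 ± 0.20) and did not pass (adjusted p = 0.0765). After normalisation all 4 ANXA1 probes were lower on all 4 arrays, and each was least so on replicate 3. As scanned, the treated intensity of probes 3 and 4 was below the control on replicates 1, 2 and 4 and above it on replicate 3. That of probe 2 was below the control on replicate 1 only. The call of the first probe was lost without replicate 1 (adjusted p = 0.107), 3 (0.0573) or 4 (0.103), and with median centring in place of the loess normalisation the ratio was −0.15 (adjusted p = 0.854). No ANXA1 probe passed without replicate 1 or 4, and 1 passed without replicate 3.

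ANXA8, an annexin first known as an inhibitor of blood coagulation, was the member that rose. Its log2 ratio was 0.22, 0.08, 0.35 and 0.21 (0.21 ± 0.11), a fold change of 1.16 (limma adjusted p = 0.0397). The log2 signal was 8.92, 8.84, 9.02 and 8.83 in treated and 8.70, 8.76, 8.68 and 8.62 in control cells. Every treated signal was higher than every control signal. The call was lost under 9 of 17 other settings, among them the deposited processed signals (adjusted p = 0.0527) and the settings without replicate 1 (0.134), 3 (0.105) or 4 (0.128), while the ratio stayed between 0.17 and 0.27.

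**Figure D3:**
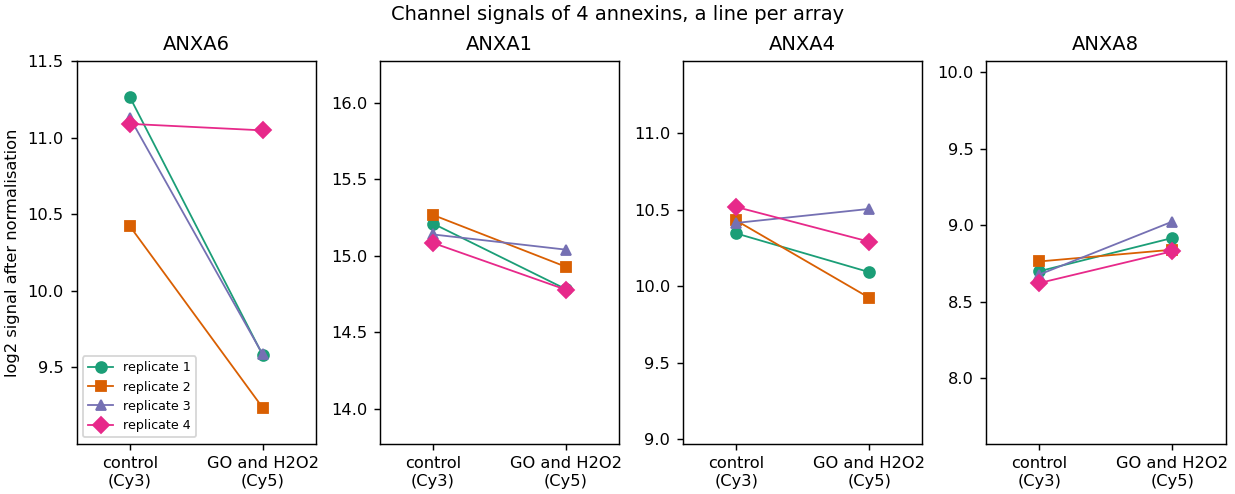
Normalised log2 signal of ANXA6, ANXA1, ANXA4 and ANXA8 in the control (Cy3) and treated (Cy5) channels, with a line per array and the same height of the axis in each panel. The line of ANXA6 drops on replicates 1 to 3 and is flat on replicate 4, where the treated signal is 11.05 and the control signal 11.09; the lines of the other genes are much less steep.

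ANXA2 forms a complex with S100A10 at the plasma membrane that binds plasminogen, and it takes part in the sealing of injured membranes. Its probe of highest signal (chr1:128723567-128723625) had log2 ratios of 0.14, 0.24, 0.13 and 0.05 (0.14 ± 0.08, 95% confidence interval 0.03 to 0.25, limma adjusted p = 0.0753). It was one of the bright probes of the array, with 204 of the tested probes brighter, and the running median of the mean ratio over 401 probes of like signal was itself 0.14. With that running median subtracted the ratio was 0.00. The other ANXA2 probes had 0.02 ± 0.11 (adjusted p = 0.791) and 0.08 ± 0.09 (adjusted p = 0.263). The 3 ANXA2 probes thus did not pass, and the difference between their ratios was not tested.

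ANXA5, which binds phosphatidylserine and is used as a label of apoptotic cells, had log2 ratios of −0.05, −0.09, 0.17 and −0.19 (−0.04 ± 0.15; chr2:91813093-91814353). The 95% confidence interval was −0.19 to 0.11 (limma adjusted p = 0.677). Its treated log2 signals were 13.08, 13.13, 13.34 and 13.05 and overlapped the control signals of 13.13, 13.22, 13.17 and 13.25.

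ANXA4, an annexin of secretory and epithelial cells, had log2 ratios of −0.25, −0.51, 0.09 and −0.23 (−0.22 ± 0.24; chr15:29263580-29263639). It did not pass the threshold (limma adjusted p = 0.125), although its interval of −0.44 to −0.01 did not hold 0. The log2 signal was 10.09, 9.92, 10.50 and 10.29 in treated and 10.34, 10.43, 10.41 and 10.52 in control cells. The treated signal was below all control signals on replicates 1, 2 and 4 and not on replicate 3.

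ANXA3 had opposite signs on the arrays. Its log2 ratio was −0.17, −0.39, 0.28 and 0.23 (−0.01 ± 0.32; chr3:41509070-41509129; limma adjusted p = 0.943). A second ANXA3 probe some distance away (chr3:41496949-41497008) had −0.15, −0.36, 0.17 and 0.01 (−0.08 ± 0.22, adjusted p = 0.495). Both probes were thus lower on replicates 1 and 2 and higher on replicates 3 and 4. The control log2 signal of the first probe was 10.26, 10.33, 10.23 and 10.26, while the treated one was 10.09, 9.93, 10.51 and 10.48.

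ANXA7, also called synexin for its part in membrane fusion, had log2 ratios of −0.12, −0.08, −0.02 and −0.21 (−0.11 ± 0.08; chr1:60513476-60513535). It was lower on all arrays but did not pass (limma adjusted p = 0.134). ANXA11, which binds S100A6 and PDCD6, had −0.02, −0.05, 0.10 and 0.20 by its probe of highest signal (0.06 ± 0.12, interval −0.07 to 0.19, adjusted p = 0.467). The 5 tiled ANXA11 probes had mean log2 ratios between 0.00 and 0.06.

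Several annexins shared the channel of larger spread or the array of highest ratio. By the probe of highest signal, the SD of the treated signals was larger than that of the control signals in 8 of 9 measured annexins, all but ANXA7. Of all tested probes, 52.6% had the larger SD in the treated channel. ANXA2 probe 2 went the other way from the ANXA2 probe counted, with an SD of 0.05 in treated and 0.12 in control cells. The ratio was highest on replicate 3 in 6 of 9 (ANXA1, ANXA3, ANXA4, ANXA5, ANXA7 and ANXA8), where this held for 27.4% of all tested probes. ANXA6, with its highest ratio on replicate 4, was not among these 6. The 9 genes were measured on the same 4 arrays, so that these counts are a description.

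The genes whose 4 ratios lay nearest to those of ANXA6 were found by Euclidean distance over the 4 arrays, as a description. They were TRIM8, a ubiquitin ligase (distance 0.871), DDX6, an RNA helicase (1.11), ERF (1.34), EIF5B and AMD1 (1.55). TRIM8 had log2 ratios of −1.23, −0.80, −0.94 and 0.13. The correlation between the channels over the pixels of the TRIM8 spot was 0.245, −0.0955, 0.188 and 0.385. Over the arrays it ran from −0.0280 to 0.226 in DDX6 and 0.256 to 0.480 in EIF5B. In ERF it ran from 0.411 to 0.766 and in AMD1 from 0.595 to 0.788. DDX6 had −1.23, −0.51, −0.89 and −0.38, and its 4 probes had mean ratios from −0.75 to 0.07, so that they differed among themselves. The 4 probes of ERF had −0.63 to −0.58, the 4 of EIF5B −0.55 to −0.16 and the 2 of AMD1 −0.56 to −0.06.

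With the sign turned the nearest genes were PFDN6, a subunit of the prefoldin chaperone (distance 0.760), EML2 (1.29), RN18S (1.30), CLTA, a clathrin light chain (1.32), and FAM219A (1.48). PFDN6 had log2 ratios of 1.33, 1.08, 0.89 and 0.02, and CLTA had 0.78, 0.81, 0.68 and −0.04. Both were chosen for their likeness to ANXA6, so that their values near 0 on replicate 4 follow from the choice. The other 3 genes with the sign turned had log2 ratios of 0.35 to 1.22 on replicate 4, and DDX6, ERF, EIF5B and AMD1 had −0.38 to −0.29, so that 7 of the 10 nearest genes were not near 0 there. The pixel correlation ran from 0.440 to 0.800 in PFDN6 and 0.698 to 0.917 in CLTA. It was lower in EML2 (0.0627 to 0.381), RN18S (0.0813 to 0.299) and FAM219A (0.0563 to 0.218). The 4 CLTA probes had mean ratios of 0.42 to 0.56 and the 5 of RN18S 0.74 to 0.80.

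**Figure D4:**
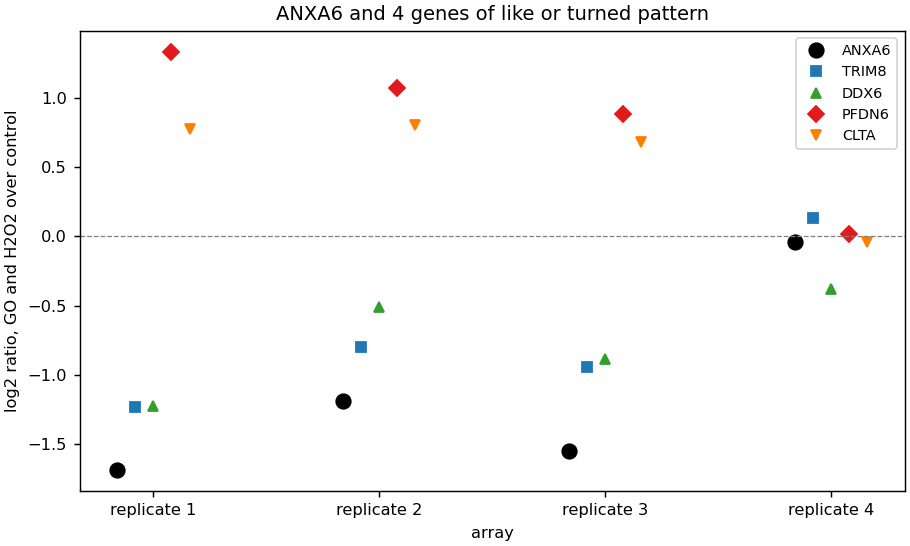
Log2 ratio of treated over control signal on each of the 4 arrays for ANXA6, for TRIM8 and DDX6, the nearest in pattern, and for PFDN6 and CLTA, which are near with the sign turned. On replicate 4 ANXA6 (−0.04), TRIM8 (0.13), PFDN6 (0.02) and CLTA (−0.04) lie near 0, and DDX6 lies at −0.38. The genes shown were chosen for their likeness to ANXA6. EML2 (0.35 on replicate 4) and RN18S (0.65), which are nearer with the sign turned than CLTA, are not shown.

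Of 15 genes for binding partners, ligands and receptors of annexins, 12 were on the array by name and 11 were measured. Of these 2 rose, 1 fell and 8 did not pass, with a median log2 ratio of −0.08 where all tested probes had 0.00, and 17.1% of all gene names passed (7.16% lower and 9.93% higher). S100A10, the partner of ANXA2, fell by both of its probes, and the brighter one had −0.33, −0.16, −0.32 and −0.29 (−0.28 ± 0.08, limma adjusted p = 0.0191). S100A1, a calcium sensor of muscle, rose with 0.38, 0.30, 0.40 and 0.48 (0.39 ± 0.08, adjusted p = 0.0129). S100A10 was thus lower on every array while ANXA2 itself did not pass.

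S100A6, a partner of ANXA11, rose by 0.24 ± 0.13 on the log2 scale (limma adjusted p = 0.0373), and 2 of its 5 probes passed. With the deposited processed signals its ratio was 0.13 and the call was lost (adjusted p = 0.153), and averaging its 5 probes gave 0.14 (adjusted p = 0.0658). The S100A6 probe of highest signal had only 33 of the tested probes brighter. The running median of the mean ratio at this signal was 0.24, which was the ratio of this probe itself. With that running median subtracted the S100A6 ratio was 0.00 and the call was lost, which this equality fixed in advance. The setting therefore cannot show whether S100A6 followed other probes of like signal. S100A11, the partner of ANXA1, had 0.02 ± 0.12 (adjusted p = 0.795). PLA2G4A, the cytosolic phospholipase that ANXA1 inhibits, had −0.16 ± 0.10 by its brighter probe (adjusted p = 0.0693), while 1 of its 2 probes passed and both were lower. SRI, which binds ANXA7, had −0.15 ± 0.06 (adjusted p = 0.0501). The one partner gene on the array that was not measured was not well above background. None of the 3 calls of partner genes was kept without replicate 1, 3 or 4 or with median centring.

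Of 16 genes for the repair of the muscle cell membrane, 14 were on the array by name and 12 were measured. Of these 3 rose, 1 fell and 8 did not pass, with a median log2 ratio of 0.03 and a range of −0.17 to 0.36. The share passing over all gene names was 17.1%. CAPNS1, the small subunit of the calpains, had 0.43, 0.31, 0.40 and 0.28 (0.36 ± 0.07, limma adjusted p = 0.0139). CAV3, the caveolin of muscle, had 0.53, 0.19, 0.38 and 0.31 (0.35 ± 0.14, adjusted p = 0.0198). DYSF, which codes for dysferlin, had 0.44, 0.26, 0.12 and 0.23 (0.26 ± 0.13, adjusted p = 0.0317). These 3 genes were higher on all arrays, whereas ANXA1 was lower on all arrays.

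CAPN2, the large subunit of a calpain, fell with −0.19, −0.22, −0.07 and −0.21 (−0.17 ± 0.07, limma adjusted p = 0.0414), and 2 of its 4 probes passed. Of the genes that did not pass, SMPD1, an acid sphingomyelinase, had 0.14 ± 0.06 (adjusted p = 0.0609) and VPS4B, an ATPase of the ESCRT machinery, had −0.14 ± 0.09 (adjusted p = 0.0832). CAPN1 had 0.04 ± 0.21 (adjusted p = 0.771). With the deposited processed signals the calls of DYSF (adjusted p = 0.117) and CAPN2 (0.0565) were lost. None of the 4 calls of repair genes was kept without replicate 1, 3 or 4 or with median centring, and that of CAPN2 was also lost without replicate 2. Markers of muscle cells were higher on the same arrays (median 0.25, above), and their part in the ratios of CAV3 and DYSF was not tested.

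**Figure D5:**
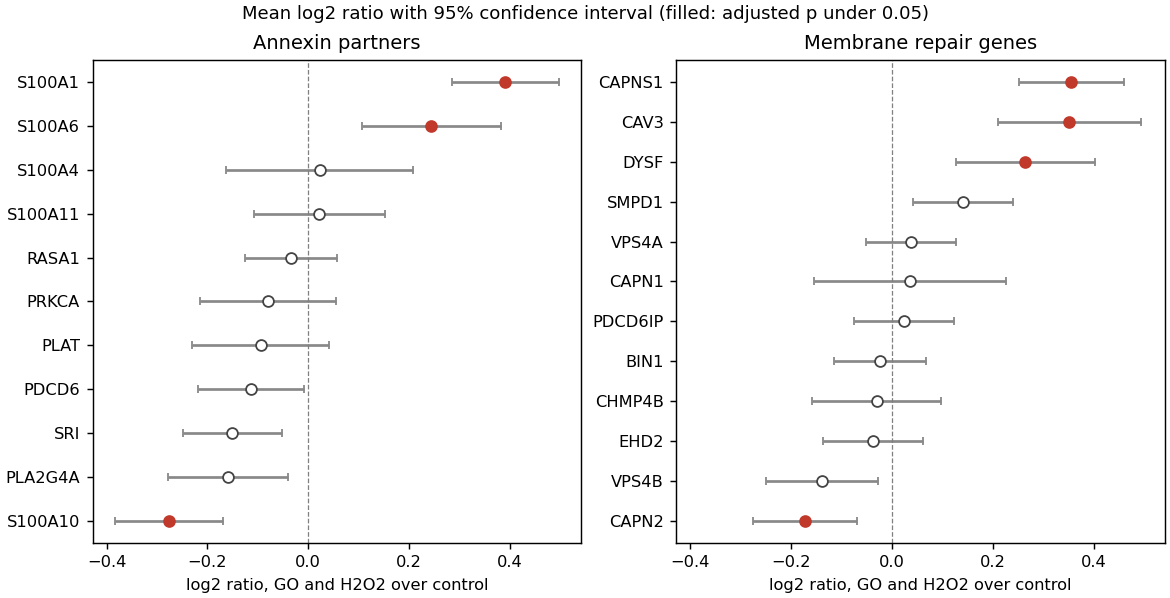
Mean log2 ratio of treated over control signal with its 95% confidence interval (4 arrays) for 11 measured annexin partners and 12 measured membrane repair genes; filled points had a limma adjusted p-value under 0.05. S100A1 (0.39) and S100A10 (−0.28) lie at the ends of the partner list, and CAPNS1 (0.36) and CAPN2 (−0.17) at the ends of the repair list.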

How the data were processed

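Scanner files of 4 Agilent horse arrays were used. The deposited intensity values (mean and median signals, pixel SDs and background medians of both channels) were as scanned with Agilent Feature Extraction 10.10.1.1, per the file headers, and the deposited score of pixel correlation compares both channels within a spot. The authors' processed intensities were background-subtracted and dye-normalised, and the deposited log10 ratio, equal to that in the series matrix (largest difference 0), is that of processed Cy5 over Cy3. The deposited marks for background, saturation and outliers were used as given.

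Mean intensities were corrected with normexp (offset 50) and normalised by loess within each array, with weight 0 for control spots. Spots with an outlier mark were left out and spots of a probe averaged. Of 43603 gene probes, 24230 (55.6%) were tested against a mean log2 ratio of 0 with limma 3.58.1 (R 4.3.3, two-sided), adjusted by Benjamini-Hochberg over all of them. Channel signals are log2 values after loess and Aquantile. Cy5 over Cy3 pairs treated with control by array. Each gene was given by its tested probe of highest mean signal. The number of arrays limits the precision. Positions are those of EquCab1 in the files, and exons and UTRs were not assigned. The study's Student test was run as an alternative, called the methods' t-test. The script was tested on simulated data.

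All 10 members were named by every probe, list genes where they passed, with up to 3 others per list, and the 5 genes nearest to ANXA6 in each direction. The members and lists were chosen with earlier results of these data known.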

Additional observations from a re-analysis of the deposited data

Results flagged for a closer look

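Among 42 sets of 4 arrays examined, 1 had a single array far from the other 3, where chance gives about 1 in 20. This was ANXA2 probe 3, with a log2 ratio of −0.0494 on replicate 1 and ratios of 0.11 to 0.13 on the other arrays. The gap was 0.870 of the whole range. The low value of replicate 1 is within the range seen for the other ANXA2 probes.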

How the results depend on the processing

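The count of annexin probes past the threshold (5 with ANXA6, which was chosen for its low ratio) was 3 with the deposited processed signals and with the series matrix, 0 with median centring, 0 with the methods' t-test and 0 to 5 when a replicate was left out. The count of partner genes (3) was 0 with median centring and with the methods' t-test, 5 with array weights and 0 to 4 when a replicate was left out. The count of repair genes (4) was 2 with the processed signals and with the series matrix, 0 with median centring and with the methods' t-test and 0 to 3 when a replicate was left out. Without the pairing by array (no replicate block) the counts were 1, 1 and 1. In the same settings the number of all probes past the threshold with limma fell from 4137 to 12 with median centring, 606 without the block, and 2, 38 and 0 without replicates 1, 3 and 4. The methods' t-test gave 5. Where 0 annexin probes passed, the number of the 18 without ANXA6 that had an unadjusted p-value under 0.05 was 3 with median centring (6.48% of all probes), 5 without replicate 1 (26.8%) and 6 without replicate 4 (27.6%) with limma, and 5 with the methods' t-test (28.6%). The difference of ANXA6 from the median of the others was −1.46 to −0.89 when a replicate was left out and was negative under all settings tried. ANXA6 was chosen for its low ratio and every setting used the same spot, so that this sign is only a description. The causes were not tested. The settings for single partner and repair genes were added after seeing the data.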

Other observations

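The array also held 5 probes named ANXA9 and 1 named ANXA10, which were not among the members. None was tested, since none was well above background on all 4 arrays of a channel. The ANXA9 probe seen on most arrays was above background on 3 arrays in the treated and 2 in the control channel. The ANXA10 probe was not well above background on any array. No ratio is given for these probes.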
